A study of Schizosaccharomyces pombe with 21 samples.

Results

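The step from 24 h to 36 h of phosphate starvation was examined in fission yeast (*Schizosaccharomyces pombe*) cells without the *ecl1*, *ecl2* and *ecl3* genes. It was taken from 6 of the 21 samples of the series: 3 libraries labelled 24 h and 3 labelled 36 h. All 6 came from 1 strain (h- *ecl1*∆::hygMX *ecl2*∆::natMX *ecl3*∆::kanMX). This strain had grown in YES, a rich medium, and was then kept in ePMGT(-PO4), a defined medium with thiamine and without phosphate. The groups share genotype and medium, and the labels set them apart by the time of starvation only. Whether they also differ in handling or batch is not given. No wild-type libraries belong to the series, and the step cannot show what the absence of the Ecl proteins contributes. Genes were compared by the ratio of the authors' mean normalised counts, 36 h over 24 h, that is, read counts after division by a size factor for each library. Of 6988 genes listed, 5830 had a mean of at least 100 at 24 h or 36 h, and these are the genes described. Log2 ratios were taken after adding 1 to each mean, and "higher" and "lower" below refer to 36 h relative to 24 h.

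Phosphate starvation of fission yeast switches on the genes of the *PHO* regulon. Pho84 carries phosphate into the cell, Tgp1 brings in a phosphate-containing breakdown product of lipids, and Pho1 releases phosphate from compounds outside the cell. Cells that stay without phosphate stop dividing and enter a quiescent state, in which they recycle their own contents through autophagy and make fewer ribosomes. The name of the Ecl proteins stands for extender of chronological lifespan, the time that non-dividing cells stay viable. The step asks which RNAs still differed between 2 late times of starvation.

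Among the deleted genes, *ecl3* (SPBC8E4.12c) was close to absent, with a mean of 3.10 that became 3.67, under the level of any gene compared. For *ecl1* (SPCC70.12c) the table listed 1974 and then 1717, and for *ecl2* (SPBP35G2.16c) 2213 and then 2575. A mean over a whole annotated gene does not say whether the reads lie in the deleted stretch or in untranslated sequence that the cassettes may have left, so for *ecl1* and *ecl2* these values do not check the labels. Neither differed by 2-fold over the step.

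Values of single libraries were obtained for part of the genes. Each mean is a sum of 3 whole read counts weighted by the size factors, and for 1579 of the 5830 genes (27.1%) exactly 1 set of 3 counts gave the mean at both times. These are genes of low to middle level, since no mean above 1000 was searched. They hold 709 of the 903 compared non-coding genes (78.5%) and 856 of the 4908 protein-coding genes (17.4%). The libraries are called A, B and C in the order of their size factors (1.07, 0.991 and 0.804 at 24 h and 1.04, 0.915 and 0.857 at 36 h), because they could not be tied to the replicate numbers of the labels. If the normalised totals of the 3 libraries of a time were alike, a library held about 21400000 counted reads on average at 24 h and about 22300000 at 36 h. Under 80% of the genes were recovered, so the ratio of the means is the main measure for all genes, and a limma test on the 1579 recovered genes, added after the data were seen, is given beside it.

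The 3 libraries of 24 h were less alike than those of 36 h, and library C of 24 h stood apart. Across the 1579 recovered genes, Pearson's r of log2 values was 0.905 between libraries A and B of 24 h, 0.876 between B and C, and 0.81 between A and C. It ran from 0.942 to 0.973 among the libraries of 36 h, and from 0.922 to 0.946 between library A of 24 h and those of 36 h. The median coefficient of variation between libraries was 17.3% at 24 h and 9.80% at 36 h. Library C of 24 h had the lowest correlations with the 36 h libraries, from 0.759 to 0.804. The medians of RNA classes also differed between the 24 h libraries. Relative to the 36 h mean, the median of 13 small nucleolar RNAs was -0.26 on the log2 scale in library A of 24 h, 0.63 in library B and 1.19 in library C. For 4 small nuclear RNAs these medians were 0.0042, 0.81 and 1.18, and for 679 long non-coding RNAs 0.0017, 0.36 and 0.39. The medians of 856 protein-coding genes were 0.041, 0.090 and 0.038. Small nuclear and nucleolar RNAs normally lack a poly(A) tail, and the libraries were made from poly(A)+ RNA. The part of this shift in the lower values at 36 h was not tested, and results are given with and without library C where its values are known.

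**Figure D1:**
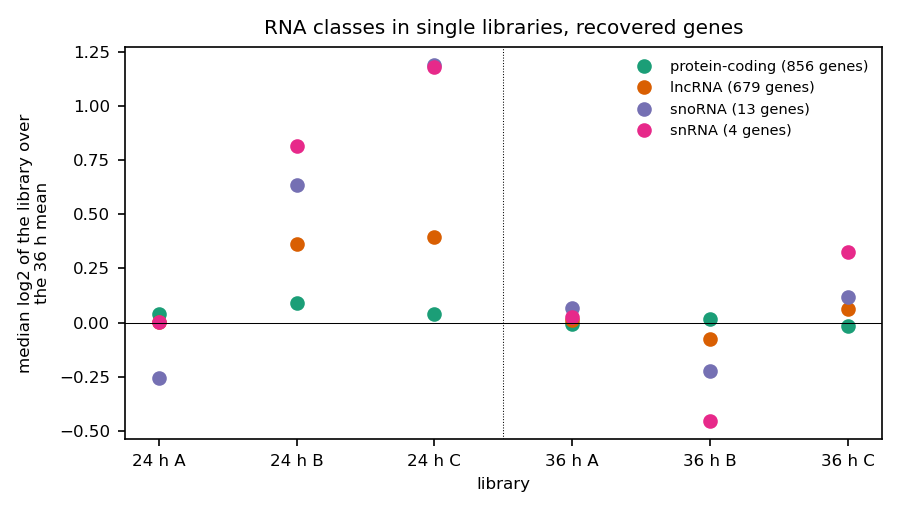
Median log2 value of each RNA class in single libraries, relative to the mean of the 3 libraries of 36 h, over genes whose counts were recovered (points: median over the genes of a class, with the number of genes in the legend). Protein-coding medians stay within 0.1 of 0, whereas snoRNA and snRNA medians reach 1.19 and 1.18 in library C of 24 h.

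Few genes differed by 2-fold between 24 h and 36 h. There were 14 genes at least 2-fold higher (0.24% of the 5830 genes) and 73 at least 2-fold lower (1.25%), and the SD of the log2 ratios over all genes was 0.34. Of 4908 protein-coding genes, 9 were higher and 28 lower. Of 903 non-coding genes, 5 were higher and 45 lower. The median log2 ratio was 0.044 for protein-coding and -0.26 for non-coding genes. The largest differences upward and downward were those of SPNCRNA.234, a centromeric long non-coding RNA, at 1.92, and of SPAC56F8.12, an uncharacterized protein, at -2.52.

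**Figure D2:**
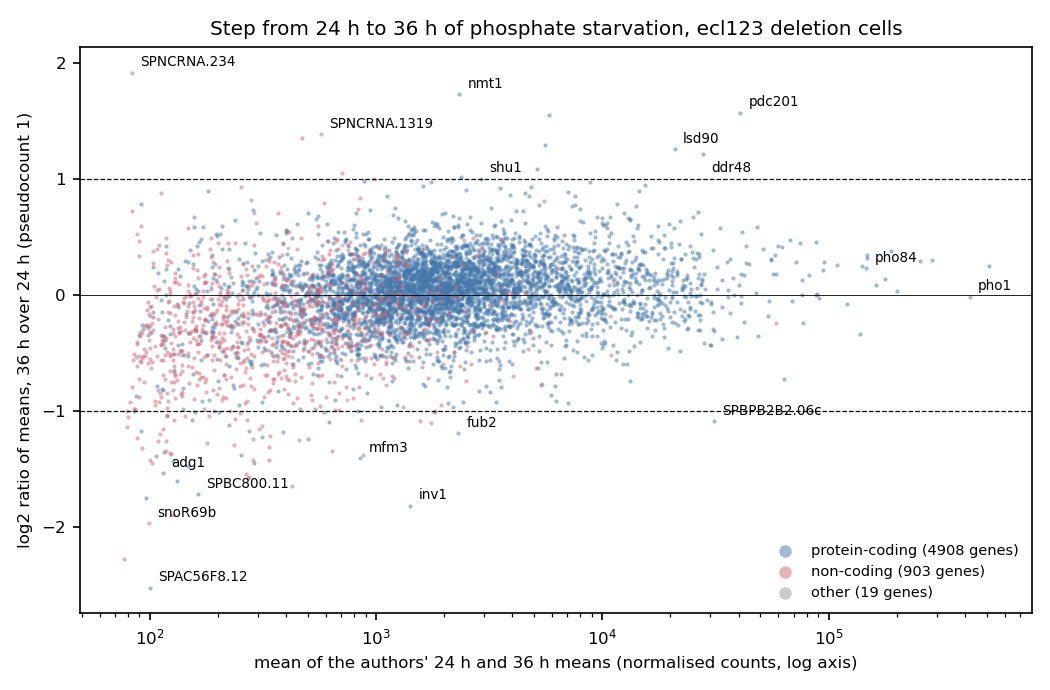
Log2 ratio of the authors' means (36 h over 24 h, pseudocount 1) against the mean level of the gene on a log axis, 1 point for each of 5830 genes, coloured by class, with dashed lines at 2-fold. The 9 protein-coding genes above the upper line lie above a level of 1000, while most points under the lower line are at low level and many are non-coding.

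The step was quiet beside the first hours of starvation. The SD of its log2 ratios was 0.34, against 1.18 from 0 h to 4 h and 0.63 from 4 h to 8 h. In the later steps it was 0.27 (8 h to 12 h), 0.40 (12 h to 24 h) and 0.29 (36 h to 48 h). Between 0 h and 4 h, 807 genes became 2-fold higher and 772 lower, and between 4 h and 8 h 450 and 95 did. The later steps held 37 higher and 16 lower genes (8 h to 12 h), 111 and 56 (12 h to 24 h) and 15 and 4 (36 h to 48 h). The step from 24 h to 36 h was the only one with more lower than higher genes. The median log2 ratio of non-coding genes was 0.17 from 12 h to 24 h, -0.26 from 24 h to 36 h and 0.32 from 36 h to 48 h, so the non-coding median was negative in this step and positive in the steps before and after. Neighbouring steps share a group of libraries, and values at the shared time enter both with opposite sign.

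In the limma test on the 1579 recovered genes, 2 genes were higher (0.127%) and 11 lower (0.697%) with a Benjamini-Hochberg adjusted p of at most 0.05 and at least a 2-fold ratio. A further 3 genes above and 6 below passed the adjusted p with a smaller ratio, and 351 genes had an unadjusted p under 0.05. The 36 h libraries were all above the 24 h libraries for 120 recovered genes (7.6%) and all below them for 337 (21.3%). The median log2 ratio of the recovered genes was -0.15, against 0.014 over all 5830 genes. Non-coding genes were recovered more often than protein-coding ones, so these shares do not stand for all genes. Leaving out a library also leaves the test with fewer values. Without library A or library B of 36 h no gene passed both criteria (202 and 185 genes had an unadjusted p under 0.05), while 66 and 57 recovered genes were 2-fold lower, against 61 with all libraries. Without library B of 24 h, 1 higher and 1 lower gene passed. Without library A of 24 h, the library most like those of 36 h, 8 genes were higher and 106 lower.

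The 9 protein-coding genes that were 2-fold higher all had means above 1000 at both times, so single libraries are not known. A mean of 3 libraries can grow by at most 1.5 times when any 1 of them is left out, and the ratio of *nmt1* would then still be at least 2.22 and that of *shu1* at least 1.34 whichever library of 24 h were dropped. *nmt1* (SPCC1223.02), which makes the pyrimidine part of thiamine and is known as a gene repressed by thiamine, went from a mean of 1081 to 3593 (3.32-fold, log2 ratio 1.73). It had been at 18.2 at 0 h and 86.6 at 12 h, and it stood at 4985 at 48 h. Of the 12 thiamine genes compared, *nmt1* alone reached 2-fold, and the median log2 ratio was 0.18. The paper's recipe for the starvation medium includes thiamine. *gsf2*, a flocculin gene, had a log2 ratio of 0.61, and *thi1* and *thi5*, encoding transcription factors of the thiamine genes, had ratios of 0.28 each.

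*pdc201* (SPAC3G9.11c), encoding a pyruvate decarboxylase, went from 20488 to 61026 (2.98-fold). Its mean was higher at every later time sampled, from 164 at 0 h to 12559 at 12 h, and reached 73927 at 48 h. The genes *ddr48* (from 16645 to 38814, 2.33-fold) and *lsd90* (from 12350 to 29518, 2.39-fold) were already abundant at 4 h, at 17089 and 32360. *lsd90* was lower at 24 h than at 12 h (24506). SPAPB1A11.05 went from 2949 to 8664 (2.94-fold) and overlaps SPAC31G5.01 on the same strand. The reference gives both the same product, the splicing protein Sap49, so reads of this locus are uncertain. SPAC31G5.01 itself went from 1155 to 1241.

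The other higher coding genes ran from 2.46-fold to 2.01-fold. SPAPB18E9.04c, an uncharacterized protein, went from 3235 to 7945 (2.46-fold) and *agn2* (SPBC646.06c), an endo-1,3-alpha-glucanase of the kind that digests the wall of the spore sac, from 3300 to 7032 (2.13-fold). *scn3*, of the TatD nuclease family, went from 1574 to 3186 (2.02-fold), and *shu1* (SPAC1F8.02c), which encodes a cell surface protein for heme uptake, from 1925 to 3867 (2.01-fold). *shu1* had been at 9.77 at 0 h and had grown at each time since. Just under 2-fold were *jmj1* (log2 ratio 0.99) and SPBC2A9.14 (0.98), and just over it *shu1* and SPNCRNA.1079 (1.01 each).

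**Figure D3:**
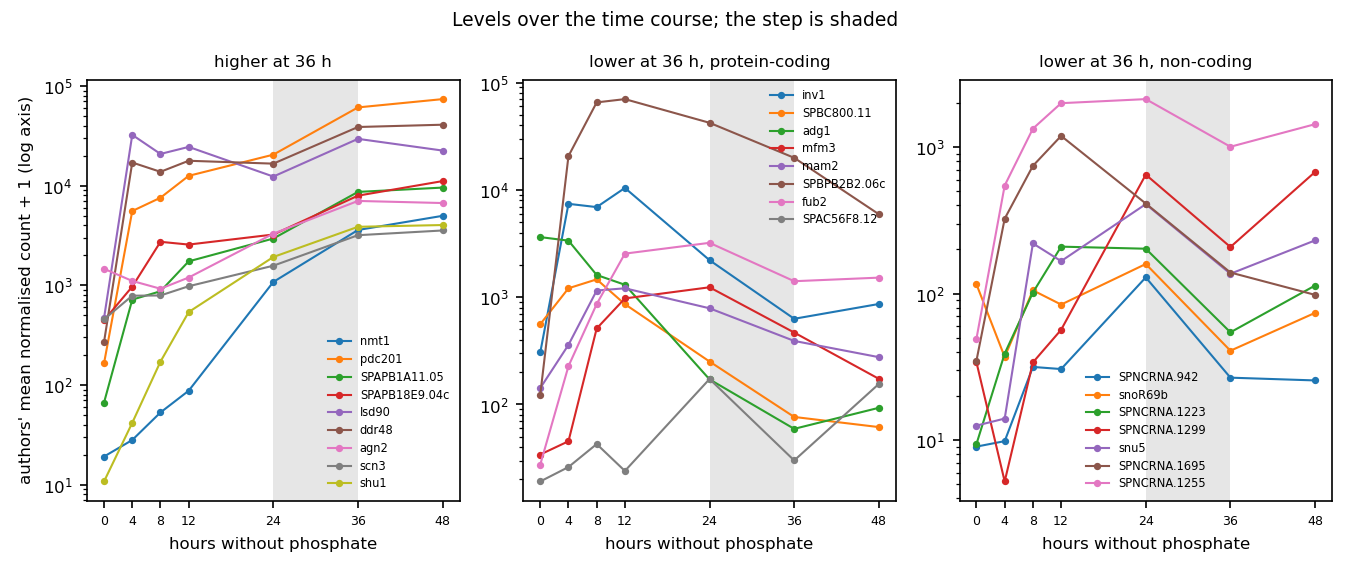
Authors' mean normalised counts plus 1 on a log axis against hours without phosphate for genes that were 2-fold higher at 36 h (left) and for selected protein-coding (middle) and non-coding (right) genes that were 2-fold lower, with the step shaded. *nmt1* and *shu1* climb at every time, SPBPB2B2.06c declines from 12 h on, and SPAC56F8.12 and SPNCRNA.1299 are high at 24 h and 48 h and low between.

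Among the 5 higher non-coding RNAs, 3 had library values. SPNCRNA.234 had normalised counts of 37.2, 37.3 and 28.6 in libraries A, B and C of 24 h and of 144, 133 and 121 in those of 36 h. The groups lie far apart, with a limma log2 difference of 1.93 ± 0.33 (SE, adjusted p = 0.035). SPNCRNA.1319, which overlaps the hexose transporter gene *ght4* on the other strand, had 317, 337 and 289 at 24 h and 814, 883 and 780 at 36 h. Its log2 difference was 1.39 ± 0.13 (SE, adjusted p = 0.0023 by limma), while *ght4* itself had a log2 ratio of -0.035. SPNCRNA.1480 had 438, 238 and 117 at 24 h and 796, 605 and 632 at 36 h, and the spread at 24 h kept it from passing the test (adjusted p = 0.076 by limma). SPNCRNA.1611 went from a mean of 462 to 959 and SPNCRNA.1079 from 650 to 1307.

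Of the 14 higher genes, all were higher at 24 h than at 0 h, 11 were higher at 24 h than at 12 h, and 12 were higher still at 48 h than at 36 h. The exceptions at 48 h were *lsd90* and *agn2*, at 22515 and 6698. Over all 5830 genes, 2894 were higher at 24 h than at 0 h, 3107 were higher at 24 h than at 12 h, and 2693 were higher at 48 h than at 36 h. The 14 were picked by their 24 h and 36 h means, which enter these counts. 

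The 73 lower genes were less uniform. Of these, 58 were above their 0 h level at 24 h and 46 still were at 36 h. In 61 the 36 h mean was below the 12 h mean as well, and in 59 the 48 h mean was above the 36 h mean, with a median log2 ratio of 0.46 from 36 h to 48 h. Only 9 declined through all of 12 h, 24 h, 36 h and 48 h, and 37 were higher at 24 h than at 12 h and higher at 48 h than at 36 h. Over all 5830 genes, 2894 were above their 0 h level at 24 h and 2913 at 36 h. The 36 h mean was below the 12 h mean in 2650 and below the 48 h mean in 2693, and 1821 had both rises. The 73 were picked for a 24 h mean above the 36 h mean, so these counts are partly built in. Library values were known for 61 of the 73. All 61 stayed below 0 on the log2 scale without library C of 24 h, but 28 stayed at least 2-fold lower, 14 of 22 protein-coding and 14 of 39 non-coding. The 36 h libraries were all below the 24 h libraries in 43 of the 61, against 337 of all 1579 recovered genes (21.3%). The 61 were picked by the same values, so such separation is partly built in. Library A was the lowest of the 24 h libraries in 55 of the 61 and library C the highest in 48.

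The lower protein-coding genes included genes for single metabolic enzymes. *inv1* (SPCC191.11), the secreted invertase that splits sucrose and is repressed by glucose, had means of 10425 at 12 h, 2211 at 24 h and 628 at 36 h, a 3.52-fold difference over the step. At 36 h its libraries held 660, 502 and 722, while those of 24 h are not known. SPBC800.11, a nucleoside hydrolase, had 198, 228 and 325 at 24 h and 55.6, 59.0 and 112 at 36 h. The groups did not overlap, and the log2 difference was -1.76 ± 0.33 (SE, adjusted p = 0.041 by limma).

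The 2 permease genes past 2-fold were neighbours in the genome, SPBC359.01 and *aat1* (SPBC359.03c). *aat1* had 634, 1025 and 869 at 24 h and 340, 347 and 493 at 36 h (log2 difference -1.09 ± 0.21 SE, adjusted p = 0.041 by limma), and SPBC359.01 had 130, 224 and 200 at 24 h and 78.6, 66.7 and 59.5 at 36 h (adjusted p = 0.053 by limma). Neither pair of groups overlapped. Over the 20 amino acid transport genes compared, 2 were lower and 0 higher, against 1.25% and 0.24% over all genes. Their median log2 ratio was 0.039 against 0.014 over all genes. *nrg1*, another permease gene, had a ratio of -0.86 and *meu22* one of 0.62. SPBC23G7.13c, a urea transporter, lay just inside 2-fold (log2 ratio -0.98) with 654, 614 and 576 at 24 h and 322, 293 and 316 at 36 h (adjusted p = 0.019 by limma).

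SPBPB2B2.06c was the lower gene of highest level. The reference names its product a phosphoprotein phosphatase, while the paper describes it as a predicted extracellular nucleotidase, which releases phosphate from AMP. SPBPB2B2.06c had gone from a mean of 123 at 0 h to 70123 at 12 h. It then went to 42193 at 24 h, 19893 at 36 h (2.12-fold lower) and 5928 at 48 h. The *PHO* regulon genes did not follow it. *pho1* had means of 422772 and 419074, *pho84* of 134784 and 158336, and *tgp1* of 54857 and 62305, with log2 ratios of -0.013, 0.23 and 0.18. Over 17 genes of phosphate transport and storage the median log2 ratio was 0.16, and SPBPB2B2.06c was the only one past 2-fold. The highest was *pqr1*, a ubiquitin ligase gene that limits phosphate uptake, at 0.63, followed by *pho7*, the activator of the regulon, at 0.48.

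The long non-coding RNAs that run through the *PHO* promoters are transcribed when phosphate is plentiful and interfere with the genes behind them. *nc-pho1* had 173, 269 and 413 at 24 h and 211, 175 and 204 at 36 h, so the groups overlap, and its log2 ratio of -0.53 shrank to -0.17 without library C. The ratio of *nc-tgp1* was -0.49. *prt2*, upstream of *pho84*, had 879, 915 and 915 at 24 h and 890, 765 and 899 at 36 h, a log2 ratio of -0.084. In the reference, *nc-pho1* and *prt2* overlap *pho1* and *pho84* on the same strand, so their reads may be shared with those genes.

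Of 17 cell separation genes, 2 were 2-fold lower and 0 higher, against 1.25% and 0.24% over all genes. *adg1*, a cell surface glycoprotein gene, had 154, 228 and 129 at 24 h and 59.4, 35 and 80.5 at 36 h (adjusted p = 0.062 by limma), down from a mean of 3629 at 0 h. The groups did not overlap, and the log2 ratio without library C was -1.69. The median of the list was 0.034, with 10 genes above 0, and *mid2* stood at -0.51 and *bgs4*, a glucan synthase gene, at 0.62.

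*mam2* (SPAC11H11.04), the receptor for P-factor pheromone, had 832, 666 and 862 at 24 h and 390, 398 and 383 at 36 h. The 36 h libraries lay close together and all below the 24 h libraries, with a log2 difference of -1.0 ± 0.14 (SE, adjusted p = 0.019 by limma). Without library C of 24 h the log2 ratio was -0.94, inside 2-fold. *mfm3*, which encodes an M-factor pheromone precursor, went from a mean of 1236 to 467 (2.64-fold lower) and to 172 at 48 h, with 561, 418 and 423 in the libraries of 36 h. These were the only 2 of 28 mating genes past 2-fold, against 1.25% of all genes that were 2-fold lower. The median of the list was -0.071. *ste11*, the master regulator of mating, had a log2 ratio of 0.15.

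SPAC56F8.12 had 18.6, 69.7 and 427 at 24 h and 35.5, 9.84 and 42.0 at 36 h: library A of 24 h lay within the range of 36 h, and without library C the log2 ratio was -0.58 in place of -2.52. *ftm2* had 83.8, 187 and 175 at 24 h and 48.9, 35 and 46.6 at 36 h, with -1.61 without library C (adjusted p = 0.058 by limma). SPAC977.18 had 335, 502 and 427 at 24 h and 135, 119 and 208 at 36 h, and passed the test (adjusted p = 0.033 by limma). SPBPB2B2.18 had 118, 195 and 282 at 24 h and 48.9, 36.1 and 110 at 36 h, without overlap (adjusted p = 0.094 by limma).

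**Figure D4:**
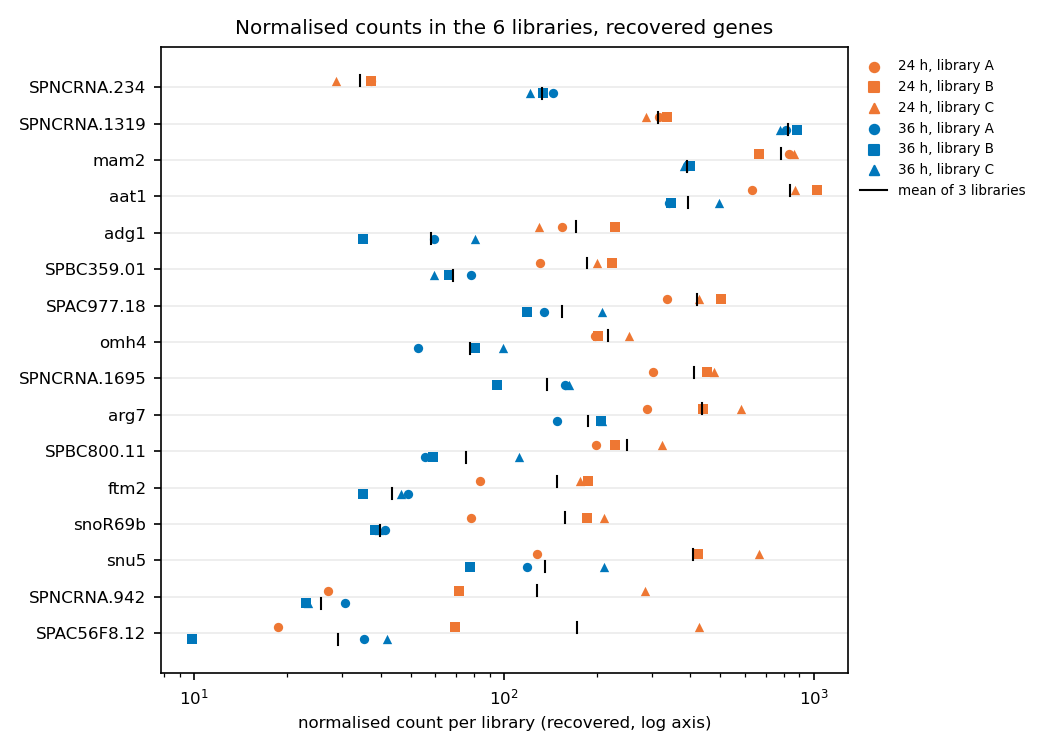
Normalised counts per library on a log axis for 16 genes whose counts were recovered (orange: 24 h, blue: 36 h; symbols: libraries A, B and C; black bars: mean of 3 libraries). The groups are apart for *mam2* and *omh4*, whereas for SPAC56F8.12 the 24 h library A, at 18.6, lies among the 36 h values and library C stands at 427.

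Several lower genes were neighbours. Of 72 lower genes that could be placed in the reference's gene order, 26 (36.1%) had another lower gene among the 5 compared genes on either side, against 565 of all 5820 genes placed (9.71%). Part of these neighbours are overlapping genes on opposite strands, and whether such genes share reads was not tested. The stretch from *adh8* to *fet4*, picked out after its values were seen, held 16 compared genes, all with a log2 ratio below 0 and 6 past 2-fold, with a median of -0.70. The 9 recovered genes of the stretch had a median of -1.15, and of -0.96 without library C.

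Within that stretch the lower genes had unlike roles. *omh4* encodes a mannosyltransferase and had 196, 202 and 253 at 24 h and 52.7, 80.9 and 99.1 at 36 h (log2 difference -1.51 ± 0.28 SE, adjusted p = 0.041 by limma). *arg7*, for arginine synthesis, had 290, 441 and 581 at 24 h and 149, 206 and 208 at 36 h (adjusted p = 0.057 by limma), and *fet4*, an iron and zinc transporter gene, 123, 165 and 212 at 24 h and 54.6, 82.0 and 57.1 at 36 h (adjusted p = 0.057 by limma). *adh8*, an alcohol dehydrogenase gene, went from a mean of 2404 to 1196. The non-coding RNAs SPNCRNA.1336, antisense to *sbp1*, and SPNCRNA.1337, antisense to *omh4*, passed the test as well (log2 differences -1.23 ± 0.20 SE and -1.16 ± 0.20 SE, adjusted p = 0.033 and 0.035 by limma). *tms1*, a polyol dehydrogenase gene that lies next to *adh8*, had a log2 ratio of -0.93.

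A second run held SPBC359.01, *alr2*, *aat1* and *pfl7*, the first 4 genes of their cosmid, with log2 ratios from -1.42 to -0.995. *alr2* encodes an alanine racemase and *pfl7* a flocculin-like cell surface protein. This cosmid is one of those near chromosome ends. Over the 84 genes of such cosmids compared, 9 were 2-fold lower and 1 higher (*shu1*), against 1.25% and 0.24% over all genes, with a median log2 ratio of -0.10 against 0.014 over all genes. Of their 36 recovered genes, 7 were 2-fold lower, and 8 were without library C.

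Non-coding RNAs supplied 45 of the 73 lower genes, or 4.98% of the 903 compared, against 1.25% over all genes. SPNCRNA.942 had 27.0, 71.7 and 285 at 24 h and 30.7, 23.0 and 23.3 at 36 h, and library A of 24 h lay within the 36 h range. SPNCRNA.1299 had 172, 422 and 1347 at 24 h and 186, 131 and 303 at 36 h, also with overlap. SPNCRNA.1223 had 90.3, 141 and 372 at 24 h and 51.8, 37.2 and 71.1 at 36 h, without overlap. All 3 ratios shrank without library C, from -2.27 to -0.92, from -1.64 to -0.52 and from -1.90 to -1.10. Of 685 recovered genes with SPNCRNA identifiers, 36 were 2-fold lower with all libraries and 12 without library C.

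The small nuclear and nucleolar RNAs were lower as a list, with 4 of 28 past 2-fold, 26 of 28 below 0 and a median log2 ratio of -0.53. Over all 903 non-coding genes, 4.98% were 2-fold lower, 219 were above 0 and the median was -0.26. *snoR69b* had 78.2, 186 and 210 at 24 h and 41.2, 38.3 and 39.7 at 36 h, so it was lower also against library A, and its ratio without library C was -1.71. *snu5*, the U5 small nuclear RNA of the spliceosome, had 128, 424 and 668 at 24 h and 119, 77.6 and 210 at 36 h, and *snoR38* 154, 302 and 988 at 24 h and 191, 161 and 231 at 36 h. Both overlapped, and without library C the ratio of *snu5* was -1.02 and that of *snoR38* was -0.23. For the 17 recovered genes of the list the median went from -0.61 to -0.36 without that library.

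The 36 h libraries were all below the 24 h libraries for 26 of the 39 recovered non-coding RNAs that were 2-fold lower. Over all recovered genes this held for 337 of 1579 (21.3%), and the 39 were picked by the same values. Of the 39, 5 passed the limma test, as did 6 of the 22 recovered protein-coding genes that were 2-fold lower. The share of 0.697% over all recovered genes includes genes within 2-fold, which cannot pass. SPNCRNA.1695, antisense to *fub2*, had 303, 452 and 477 at 24 h and 157, 95.1 and 162 at 36 h (log2 difference -1.58 ± 0.26 SE, adjusted p = 0.033 by limma), and *fub2* itself, encoding a proteasome regulator of the PI31 family, went from a mean of 3209 to 1408 (2.28-fold lower). The paper describes strand-specific libraries, but no source used here gives the strand setting of the read counting. Whether reads of such a pair are shared was not tested. SPNCRNA.1482 had 358, 396 and 502 at 24 h and 139, 128 and 202 at 36 h (adjusted p = 0.032 by limma). SPNCRNA.610 completes the 5 non-coding genes that passed, with 196, 273 and 291 at 24 h and 81.5, 101 and 131 at 36 h. Of the 73 lower genes, 35 overlapped another compared gene, and for 4 of them that partner was 2-fold lower as well. These 4 are *omh4* with SPNCRNA.1337 and *fub2* with SPNCRNA.1695, each pair counted from both sides. The shares over all compared genes were not computed, so these counts stand without a background.

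Genes of the large cellular programmes stayed within 2-fold. For comparison, 2806 of all 4908 protein-coding genes were above 0, and their median log2 ratio was 0.044. Of 36 autophagy genes none was past 2-fold, 29 were above 0 and the median log2 ratio was 0.18, with *atg22*, a vacuolar amino acid exporter gene, at 0.58 and *atg38* at 0.53. Of 139 cytosolic ribosomal protein genes none was past 2-fold, 48 were above 0 and the median was -0.063. The lowest of them were the genes of the acidic stalk proteins, *rpp203* (-0.83, from 4084 to 2297), *rpp102* (-0.74) and *rpp202* (-0.72), and all 3 had been lower at 12 h than at 24 h. The 95 ribosome assembly genes had a median of 0.082, the 36 proteasome genes one of 0.11, the 75 mitochondrial ribosome genes one of 0.0041 and the 35 aminoacyl tRNA synthetase genes one of 0.036, again with no gene past 2-fold. The 56 translation factor genes (-0.048) and the 37 genes of RNA polymerases I and III (-0.061) were similar.

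Mitosis and cytokinesis genes had the highest median of the lists, 0.34 over 23 genes, of which 20 were above 0 and none was past 2-fold. Over all protein-coding genes, 2806 of 4908 were above 0, with a median of 0.044. *sid2*, a kinase gene of the septation network, went from 2007 to 3213 (log2 ratio 0.68), *sep1*, a forkhead transcription factor gene, from 3569 to 5505 (0.63) and *imp2*, a contractile ring gene, from 1328 to 1966 (0.57). At 48 h these 3 were at 2412, 4219 and 1422, below their 36 h means. The 21 G1/S genes had a median of -0.094. Their lowest was *dut1*, which clears dUTP, with 775, 736 and 823 at 24 h and 431, 402 and 554 at 36 h (log2 difference -0.76 ± 0.14 SE, adjusted p = 0.041 by limma). The 10 histone genes had a median of 0.024, with *hht3* at 0.59.

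Carbon metabolism showed *pdc201* above the rest. The other 17 of 18 glycolysis genes ran from -0.34 for *gpm1* to 0.53 for *eno102*, and the median of the list was 0.26. *gpd3* had the highest mean of all genes at 24 h, 465515, and went to 554804, and *pgk1*, also among the 4 highest, went from 227177 to 278591. *pho1* and SPCC1235.01 (from 256814 to 317211) were the other genes of the top 4. Of 15 TCA cycle genes 14 were above 0, against 2806 of all 4908 protein-coding genes. Their median was 0.24, with *cit1*, citrate synthase, at 0.52. The exception was *lsc1* at -0.52. Of 6 hexose transporter genes 5 were below 0, with *ght5*, the main high-affinity transporter of glucose, at -0.56 and a median of -0.29. *fbp1*, the gluconeogenic phosphatase gene repressed by glucose, went from 10535 to 20309, a log2 ratio of 0.95, while *fbp1-ot2*, an upstream RNA of the same gene, had -1.45 and a limma adjusted p of 0.062. The 13 trehalose and glycerol genes had a median of 0.24 and were split, with *tps1*, trehalose-phosphate synthase, at 0.58, *dak2* at -0.63 and *gld1* at -0.52.

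The iron genes went both ways. The heme and siderophore uptake genes *shu1* (1.01), *str3* (0.85) and *str1* (0.62) had positive log2 ratios, while the reductive uptake genes *frp1* (-0.74), *fio1* (-0.57) and *fip1* (-0.57) had negative ones, and the median over 18 genes was 0.11. *frp1*, the ferric reductase gene, had 191, 274 and 290 at 24 h and 172, 114 and 167 at 36 h, without overlap (adjusted p = 0.14 by limma). Only *shu1* was past 2-fold. Of the stress lists, no gene among 21 chaperone and 22 antioxidant and metal stress genes was past 2-fold, with medians of 0.15 and 0.26 and the highest ratios for *hsf1* (0.68), the heat shock transcription factor, and *ctt1* (0.65), catalase.

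**Figure D5:**
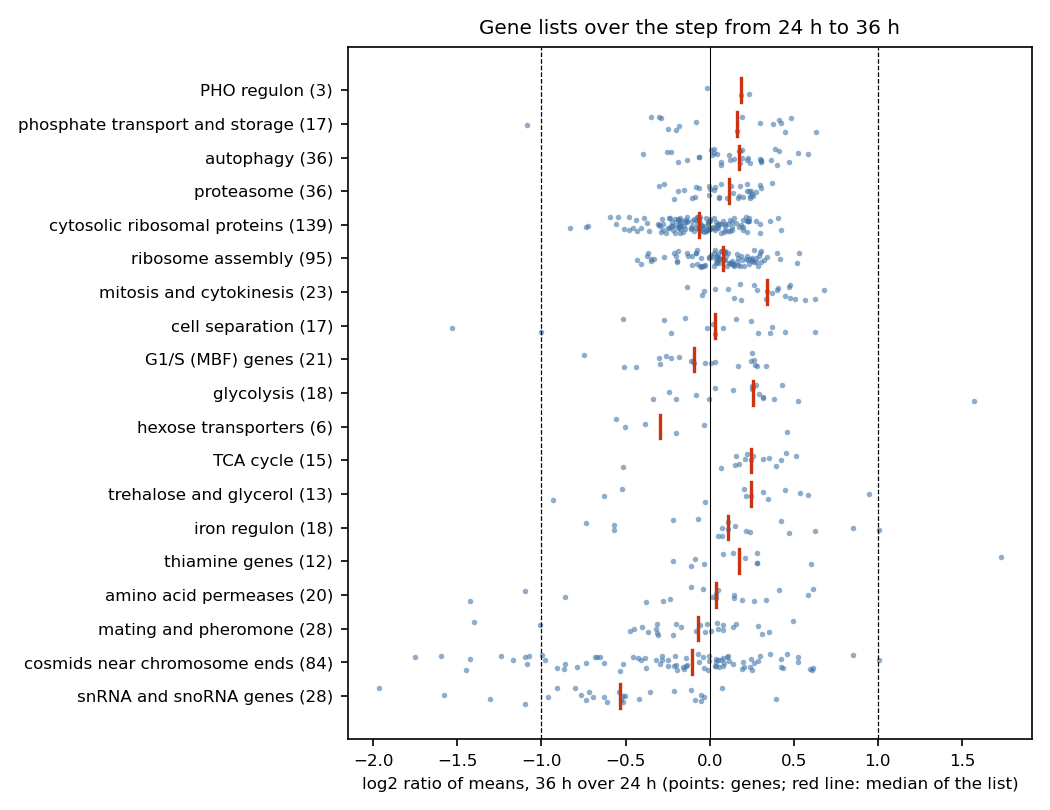
Log2 ratio of means (36 h over 24 h) of each compared gene in 19 lists (blue points, with the number of genes in brackets and random vertical scatter), the median of the list (red line) and 2-fold (dashed lines). Mitosis and cytokinesis lie mostly above 0 (median 0.34), small nuclear and nucleolar RNAs mostly below (median -0.53), and single genes such as *pdc201*, *nmt1* and *adg1* lie outside their lists.

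Apart from the tRNA list, with 1 gene compared, the other lists had medians between -0.14 and 0.15. The 7 uracil-regulated genes had a median of -0.14 and ran from -0.32 for *uck2* to 0.27 for *tna1*. The 18 sulfur metabolism genes had a median of 0.15, with *zip1* at 0.68, and the 131 genes named for meiosis or sporulation had a median of 0.012 with *mcp7* at -0.85 and *mug147* at 0.74. The 26 transcription factor genes had a median of 0.15. The 29 sterol and fatty acid genes had a median of 0.0100 and the 18 respiratory chain genes one of 0.055. The single tRNA gene that reached the level compared, SPBTRNAALA.07, had a log2 ratio of -0.42.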

How the data were processed

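Poly(A)+ RNA of 21 samples (7 times, 3 biological replicates each) was measured. The submitters' notes and the methods name HISAT2 2.1.0 for mapping, SAMtools, HTSeq 0.10.0 for counting, the ASM294v2 build and DESeq2. The authors deposited 6 tables, 1 for each starvation time against 0 h. The values used here are the authors' mean normalised count of a time point, a signal that keeps the scale of reads after division by size factors. The other columns, an overall mean, log2 fold changes, their errors, statistics and p-values against 0 h, were not used.

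Group membership came from the labels. Genes with a mean of at least 100 at 24 h or 36 h were compared by log2 ratios of means (pseudocount 1), at 2-fold. Whole counts per library were recovered where exactly 1 set of 3 counts gave the deposited mean to its 10 digits. Every mean up to 1000 had at least 1 such set. The search returned the true counts on simulated means. A test was planned only if 80% of genes were recovered. With 27.1% recovered, limma 3.58.1 (trend, log2 of the normalised count + 1, 3 libraries against 3, Benjamini-Hochberg over the 1579 genes) was added after the data were seen, with further alternatives. The test was run on simulated counts first. P-values measure the spread between libraries of 1 strain.

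RefSeq names and classes (ASM294v3, not the authors' build, so no coordinates are given) matched 6836 identifiers by locus tag and 12 by synonym, and 140 did not match. Named genes are the 12 protein-coding and 4 non-coding genes with the largest ratios past 2-fold in each direction, the deleted and *PHO* genes, up to 5 of each list, the 4 most abundant at 24 h, those beside the threshold, and genes passing limma. Others that are named were chosen after their values were seen. The members and the 36 gene lists were chosen with earlier results of these data known, and 6 lists were corrected from product names or positions. Deposited means carry no replicate numbers. Results of 1 gene are not reported here.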

Additional observations from a re-analysis of the deposited data

How the results depend on the processing

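No paired analysis was possible because the deposited means carry no replicate numbers and the recovered libraries could not be tied to them. Of the counts by fold, the 14 higher and 73 lower genes stayed within 1.5 times with a pseudocount of 10 (13 and 60) and after centring on the median protein-coding gene (11 and 89). They became 116 and 291 at 1.5-fold, 9 and 28 in protein-coding genes only, and 164 lower genes with a mean of at least 10. Leaving out 1 library at a time, the recovered genes held 3 to 9 higher genes (3 with all) and 31 to 116 lower genes (61 with all), with 31 without library C of 24 h and 116 without library A.

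The limma calls (2 higher, 11 lower) went to 0 to 8 higher and 0 to 106 lower when 1 library was left out. There were 1 higher gene with an average mean of at least 100, and 1 higher and 2 lower genes with no filter. With a fold of 1.5 there were 5 higher genes, and with no fold minimum 5 higher and 17 lower. Centring left 5 lower genes, limma voom 3, and 1 fit over all 7 times gave 29 among the 600 genes recovered at every time. The cause was not tested. Scaling by library totals was not run, since the reads of abundant genes are not recovered. Of 189 ratios of named genes, 1 moved by more than the spread between libraries with a pseudocount of 10, and 3 of 44 did without library C of 24 h. None reversed. Of 157 list medians under their alternatives 1 moved. The depth of single libraries above a mean of 1000 is unknown, so the 9 higher coding genes have no replicate check.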

Other observations

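Library A of 24 h was the lowest of its group in 842 of the 1579 recovered genes, and library C the highest in 649. The order A below B below C held in 542 of them and in 44 of the 61 recovered genes that were 2-fold lower.

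SPNCRNA.711, which lies opposite *rad52*, was another RNA with tight libraries, at 413, 445 and 438 at 24 h and 690, 739 and 823 at 36 h, a log2 ratio of 0.80 (adjusted p = 0.032 by limma). *rpb9*, a subunit gene of RNA polymerase II, had a log2 difference of -0.47 ± 0.090 (SE, adjusted p = 0.041 by limma). This was the smallest difference among the 17 genes below that passed the adjusted p.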
